A study of Mus musculus with 8 samples.

Results

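Tmem14c, Sspn, Parm1, Arl5a, Armh4 and Sri were examined in mesenchymal stem cells (MSC, adherent stromal cells grown from bone marrow) of NOD and BALB/c mice. These 6 genes, of 8106 that could be named on the arrays, were chosen by their measured signal, which was near background in NOD cultures and high in BALB/c cultures. The choice therefore used the strain difference itself. Everything said of that difference in these genes is a description, and no test of it is given. They were read by 7 probes of 46628, 1 probe each except Arl5a, which had 2.

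The arrays held 4 cultures from NOD mice, an inbred strain prone to autoimmune diabetes, and 4 cultures from BALB/c mice. The NOD donors were normoglycemic and the BALB/c donors were of matched age. The series design states that marrow of at least 5 mice went into a culture and that cells were taken at passage 4, whereas a title names 1 mouse per sample. IL-1beta treatment of MSC appears in the design too, but no array carries that label. With nothing to say whether arrays of a strain came from separate marrow pools, p-values below measure the spread between these 8 samples, which may be partly technical. The sources used here give no slide or scan assignment, so a batch that goes with strain cannot be told apart from strain.

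Tmem14c is a mitochondrial inner membrane protein that moves a heme precursor toward the enzymes that finish it, and it is best known from developing red cells. Sspn (sarcospan) is a small membrane protein of the dystrophin complex, which ties the cytoskeleton of muscle and other cells to laminin. Parm1 is a mucin-like membrane glycoprotein first described in rat prostate. Arl5a is a small GTPase of the Golgi, of the Arf-like family, whose members recruit tethers such as the GARP complex to membranes. Sri (sorcin) binds calcium through the EF-hand fold it shares with the calpains and acts on the ryanodine receptor, a calcium release channel of the reticulum. Armh4 is named for its armadillo-like helical domain.

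The upstream windows of 3 of these genes are printed because of their place in the results. Tmem14c had the largest fold bound of the 6 and Sspn has a pair of annotated starts. Arl5a has a pair of probes, of which the second was undetected on every array. Each is the 250 bases before the annotated start, written 5′ to 3′ in the direction of the gene, from RefSeq on GRCm38.p6, the C57BL/6J assembly. They show neither strain's own sequence. Capitals mark matches to GGGCGG (a GC box) or CCAAT, on either strand.
Tmem14c, chr13:41016000-41016249, plus strand: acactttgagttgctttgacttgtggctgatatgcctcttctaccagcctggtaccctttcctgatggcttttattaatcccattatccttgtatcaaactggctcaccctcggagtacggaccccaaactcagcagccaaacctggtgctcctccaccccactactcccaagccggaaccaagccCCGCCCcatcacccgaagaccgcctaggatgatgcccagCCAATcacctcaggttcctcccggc
Sspn, first start, chr6:145931623-145931872, plus strand: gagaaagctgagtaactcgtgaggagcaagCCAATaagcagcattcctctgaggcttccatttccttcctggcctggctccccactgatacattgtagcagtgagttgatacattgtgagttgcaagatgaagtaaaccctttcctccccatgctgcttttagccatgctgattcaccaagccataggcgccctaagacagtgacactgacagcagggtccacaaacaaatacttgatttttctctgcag
Sspn, second start, chr6:145933872-145934121, plus strand: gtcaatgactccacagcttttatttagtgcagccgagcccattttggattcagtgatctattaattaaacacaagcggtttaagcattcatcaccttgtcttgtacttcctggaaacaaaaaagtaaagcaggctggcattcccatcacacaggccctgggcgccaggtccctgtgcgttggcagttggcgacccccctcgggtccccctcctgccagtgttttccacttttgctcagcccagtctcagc
Arl5a, chr2:52424875-52425124, minus strand: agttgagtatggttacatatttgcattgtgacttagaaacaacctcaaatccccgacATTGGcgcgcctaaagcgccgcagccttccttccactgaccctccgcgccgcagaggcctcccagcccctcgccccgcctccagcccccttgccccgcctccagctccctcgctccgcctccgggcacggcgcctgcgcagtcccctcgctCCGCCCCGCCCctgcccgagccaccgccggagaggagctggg

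The windows had little in common. Arl5a had 23 CpG sites, Parm1 had 11, Armh4 had 10, Tmem14c had 7, Sri had 5 and the Sspn starts had 2 and 6. The median over 32851 windows was 6. GGGCGG occurred 1 time in the Tmem14c window and 2 times in the Arl5a window, where the matches share 1 base, and in no other window of the 6 genes. It occurred in 32.7% of all windows. CCAAT occurred in the windows of Tmem14c, Arl5a and Armh4 and at the first Sspn start, against 33.8% of all windows. TATAAA, found in 12.4% of all windows, was in none of the 7. No match overlapped a match to another motif. A match is only letters in a window, and a window without one says nothing of the factor.

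The arrays of a strain were not equally independent, which bears on every value below. Over the 17745 probes tested, the SD of the log2 difference between a pair of NOD arrays was 0.38 to 0.83. NOD culture 4 differed from the mean of the other 3 NOD cultures by an SD of only 0.18. Measured the same way, NOD cultures 1 to 3 were at 0.44 to 0.60. The level of NOD culture 4 lay outside the range of the others on 15.3% of probes, against 49.8% to 67.4% for each other NOD culture. The labels list NOD culture 4 as a culture of its own, and why it sits at the mean was not tested. Within BALB/c, cultures 1 and 4 were close, with an SD of 0.41. Cultures 2 and 3 stood apart from these and from each other, with SDs of 0.99 to 1.24. Their correlations with both strains overlapped: culture 2 correlated with the other BALB/c arrays at 0.84 to 0.87 and with NOD arrays at 0.84 to 0.90, and culture 3 with BALB/c arrays at 0.84 to 0.90 and with NOD arrays at 0.85 to 0.91. These ranges overlapped for cultures 1 and 4 too. Culture 1 was at 0.86 to 0.98 with BALB/c arrays and 0.81 to 0.89 with NOD arrays. Culture 4 was at 0.87 to 0.98 with BALB/c arrays and 0.83 to 0.90 with NOD arrays. Results are therefore also given without NOD culture 4, or without BALB/c cultures 2 and 3. On each array 36.3% to 39.5% of probes were detected, which here means a deposited detection p-value under 0.05, the share of negative controls at least as bright as the probe.

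Tmem14c, the heme precursor carrier, was strongly detected on every BALB/c array and on no NOD array. Its signal was 80.3, 81.9, 96.1 and 73.1 in NOD cultures 1 to 4. In BALB/c cultures 1 to 4 it was 3834, 7749.8, 5490.5 and 3447. All NOD arrays were therefore far below all BALB/c arrays, and the lowest BALB/c signal was 35.9 times the highest NOD signal. The detection p-values on NOD arrays were 0.107 to 0.171. After background correction and quantile normalization, Tmem14c averaged 5.31 ± 0.08 on the log2 scale in NOD cultures and 12.42 ± 0.38 in BALB/c cultures (SD, n = 4 each). Because NOD arrays gave only background, the fold is a bound. It is the mean BALB/c level against, on each NOD array, the lowest level among detected probes or the probe's own level where that is higher. It depends on the processing: Tmem14c was at least 107-fold lower in NOD cultures as processed here. Over 6 other ways of processing the lowest such bound was 28.2-fold, when deposited detection p-values were left unchanged, and 46.1-fold among the rest. A robust form of the background correction, counted among these 6, left the values of all members unchanged.

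Sspn, the dystrophin complex member, had the same pattern. The signal in NOD cultures 1 to 4 was 59.8, 66.0, 61.7 and 43.6, against 1785, 4285, 1269 and 2091 in BALB/c cultures 1 to 4. No NOD array detected it, with detection p-values of 0.319 to 0.863. It averaged 4.98 ± 0.09 in NOD cultures and 11.20 ± 0.67 in BALB/c cultures on the log2 scale (SD, n = 4 each), at least 45.9-fold lower in NOD as processed here. That bound was 11.5-fold with detection p-values as deposited and 21.4-fold or more under the other 5 alternatives. After normalization, the 4 BALB/c cultures spanned 3.08-fold among themselves.

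Parm1 was high in 3 BALB/c cultures and barely above background in the fourth. NOD cultures 1 to 4 had signals of 62.1, 56.2, 66.8 and 66.3, none of them detected. BALB/c cultures 1 to 4 had 2453, 3536, 149 and 3211. BALB/c culture 3, one of those that stood apart, was thus 2.23 times the highest NOD signal. After normalization the BALB/c levels spanned 33.9-fold. The log2 levels were 5.04 ± 0.09 in NOD cultures and 10.50 ± 2.45 in BALB/c cultures (SD, n = 4 each), at least 28.3-fold lower in NOD as processed here, 8.60-fold with detection p-values as deposited and 14.8-fold or more under the other 5 alternatives. The log2 difference, NOD minus BALB/c, was -5.46, and -6.71 without BALB/c culture 3.

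Armh4 was moderate in BALB/c cultures and at background in NOD cultures. Its signal in NOD cultures 1 to 4 was 80.6, 51.2, 60.8 and 55.3, against 483, 528, 241 and 495 in BALB/c cultures 1 to 4. No NOD array detected it and every BALB/c array did, and BALB/c culture 3 was again the lowest. The log2 level was 5.04 ± 0.16 in NOD cultures and 8.77 ± 0.72 in BALB/c cultures (SD, n = 4 each), at least 8.52-fold lower in NOD as processed here. The bound was only 2.00-fold with detection p-values as deposited and 4.62-fold or more under the other 5 alternatives.

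Only the first of the Arl5a probes was detected on any array. On the first probe, NOD cultures 1 to 4 had signals of 103, 75.7, 76.4 and 70.7, and BALB/c cultures 1 to 4 had 246, 1417, 626 and 283. NOD culture 1 was the closest to detection of any NOD value among the 5 undetected genes, with a detection p-value of 0.0599. The log2 level was 5.31 ± 0.23 in NOD cultures and 9.06 ± 1.01 in BALB/c cultures (SD, n = 4 each), at least 10.4-fold lower in NOD as processed here, 2.47-fold with detection p-values as deposited and 5.56-fold or more under the other 5 alternatives. The second probe was at background on all 8 arrays, with signals of 44.0 to 46.2 in NOD cultures and 42.9 to 54.8 in BALB/c cultures. It therefore had no measurable level in either strain, and its log2 difference was -0.068.

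Sri went against the description of these genes as near absent. It was detected on all 4 NOD arrays, with signals of 211, 234, 294 and 215 and detection p-values of 0.00125 to 0.00499. BALB/c cultures 1 to 4 had 1023, 2777, 2199 and 908. The groups did not overlap, and mean signal in NOD cultures was 13.8% of that in BALB/c cultures. Both levels being measured, a fold could be given rather than a bound. The log2 levels were 7.31 ± 0.16 in NOD cultures and 10.76 ± 0.61 in BALB/c cultures (SD, n = 4 each). Sri was 10.9-fold lower in NOD as processed here, a log2 difference of -3.45. That difference was -2.80 with detection p-values as deposited and -2.90 with the authors' normalized values. Without BALB/c cultures 2 and 3 it was -2.93.

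**Figure D1:**
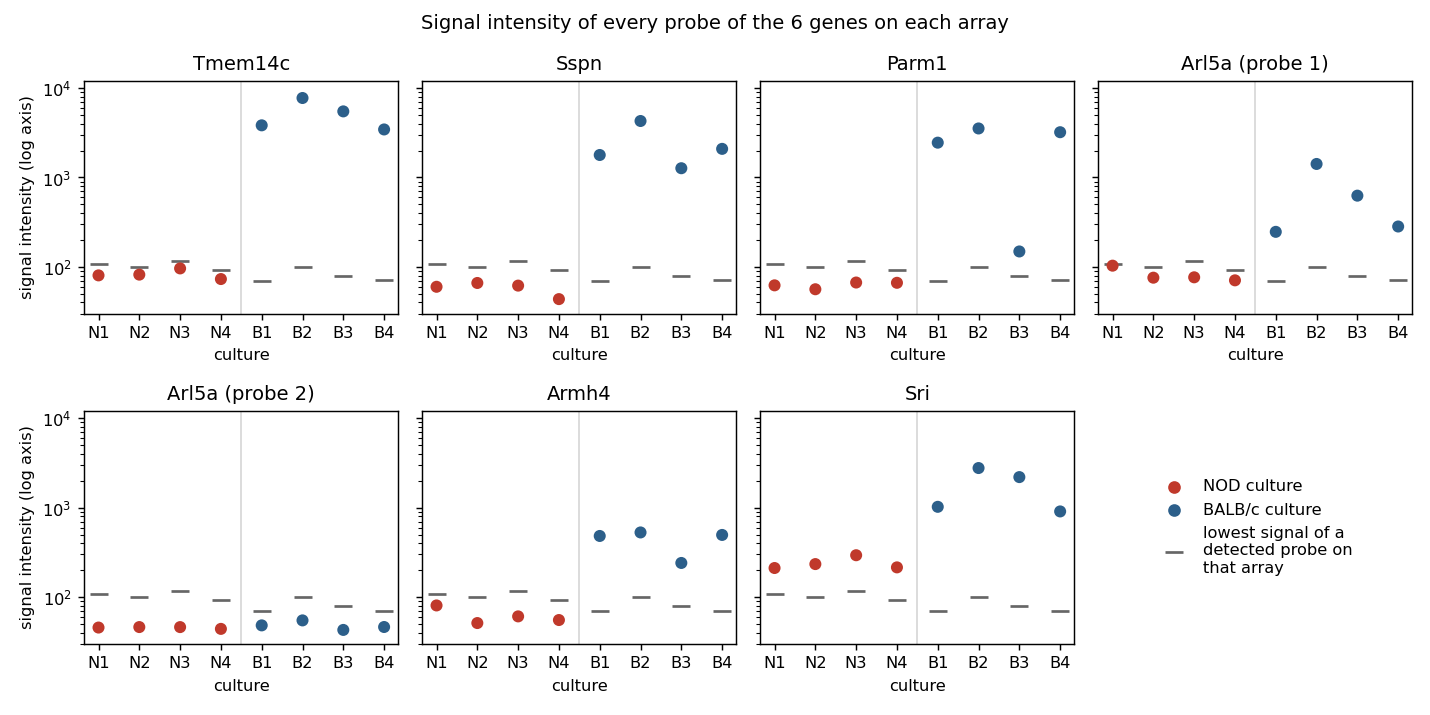
Deposited mean bead signal (log axis, arbitrary units) of the 7 probes in the 4 NOD cultures and the 4 BALB/c cultures, N1 to N4 and B1 to B4, with a dash at the lowest signal of a detected probe on that array. The NOD points of 5 genes lie between 43.6 and 103, below the dashes, those of Sri lie above them, and the second Arl5a probe is below them in all 8 cultures.

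The selection fixed these contrasts, so their frequency on the array is given only as background. All 4 NOD arrays were below all 4 BALB/c arrays on the 6 member probes that could be tested and on 9.25% of the 17745 tested probes. Detection on 4 BALB/c arrays and no NOD array held for 5 of the 6 genes and for 1.31% of tested probes, and its mirror image, detection on 4 NOD arrays and no BALB/c array, for 0.834%. A log2 difference at least as low as that of Sri, -3.45, held for all 6 genes and for 0.214% of tested probes, 38 in number. Of the named genes, Apol9a, an apolipoprotein L family gene, lay just outside at -3.43, and Dctn4, a dynactin subunit and no member, lay just inside at -3.59 on its brighter probe and at 0.75 on its second. A difference at least as far above BALB/c as Sri was below, held for 70 probes, or 0.394%.

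Among themselves the 6 genes fell into unlike patterns across the BALB/c cultures. Tmem14c, Arl5a and Sri were highest in cultures 2 and 3 and lowest in cultures 1 and 4. Relative to its BALB/c mean, Arl5a was at -0.97, 1.31, 0.23 and -0.58 in cultures 1 to 4 on the log2 scale, and Sri at -0.48, 0.60, 0.46 and -0.57. Sspn, Parm1 and Armh4 were instead lowest in culture 3, by -0.82, -3.67 and -1.04. In normalized levels, the spread among BALB/c cultures was 1.76-fold for Tmem14c and 2.26-fold for Sri. On NOD arrays no member probe spanned more than 1.40-fold in these levels. Except for Sri, the NOD levels were at background, where normalized spreads are small. The closest pair of members across the 8 arrays was Arl5a and Sri, whose centred log2 levels differed by 0.34 on average.

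The deposited values could also be corrected in other ways, and the size of the differences moved with that choice. With the detection p-values used as deposited for the background, the log2 differences were -4.85 for Tmem14c, -3.60 for Sspn, -3.17 for Parm1, -1.34 for Arl5a, -1.07 for Armh4 and -2.80 for Sri. All remained below 0 in every alternative run. Without BALB/c cultures 2 and 3 the differences of Tmem14c, Arl5a and Sri were -6.83, -2.99 and -2.93, and without NOD culture 4 they were -7.08, -3.70 and -3.43.

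**Figure D2:**
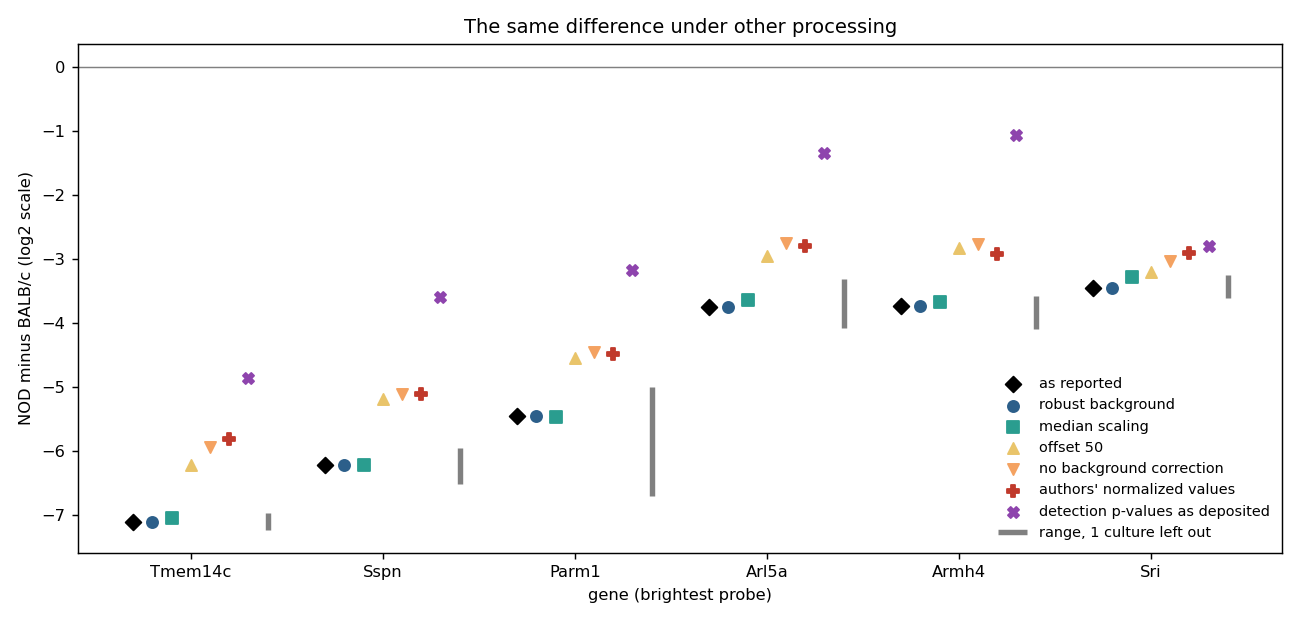
Log2 difference, NOD minus BALB/c, of the 6 member genes (first probe of Arl5a) under each way of processing (1 point per setting) and its range when 1 culture is left out (bars). Every point lies below 0, and the detection p-values as deposited give the differences nearest to 0, at -1.07 for Armh4 and -1.34 for Arl5a.

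A further probe of the same gene is the only second reading these arrays give of a gene at background. Of the named genes, 48 had a probe detected on 4 BALB/c arrays and no NOD array, and 15 of these had a further probe. For 9 the further probe was detected on some array, for 6 on some NOD array and for 4 on all NOD arrays. Arl5a is among those whose further probe was not detected at all, and Tmem14c, Sspn, Parm1 and Armh4 had no further probe. At a BALB/c level at or above that of Armh4, H2-T23, a class I histocompatibility gene, was the only named gene with this pattern besides the 5 members. Its first probe was at 5.05 ± 0.08 in NOD cultures and 10.42 ± 0.50 in BALB/c cultures. Its second probe was detected on all 8 arrays, at 10.25 ± 0.19 in NOD cultures and 10.85 ± 0.48 in BALB/c cultures on the log2 scale (SD, n = 4 each), a difference of -0.60 with a limma adjusted p of 0.188. Zfp933, a zinc finger gene, had a first probe at 5.32 in NOD and 8.14 in BALB/c cultures and a second at 6.24 in NOD and 6.51 in BALB/c cultures (limma adjusted p = 0.521).

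Those of Uxt, a chaperone-like gene, gave -0.53 (limma adjusted p = 0.111) and -0.52 (limma adjusted p = 0.229), and those of Dapp1, a signalling adaptor detected on 3 NOD arrays by its further probe, -0.97 (limma adjusted p = 0.0416) and -0.64 (limma adjusted p = 0.205). Sort1, a sorting receptor of the Golgi, was lower in NOD cultures on both of its probes. It was at 5.12 in NOD and 6.34 in BALB/c cultures on its first probe. On its second probe it was detected on all 8 arrays and was at 7.91 ± 0.26 in NOD and 11.05 ± 0.50 in BALB/c cultures (SD, n = 4 each), a difference of -3.15 (limma adjusted p = 0.00024). In the mirror pattern, detected on 4 NOD and no BALB/c arrays, 26 named genes included 10 with a further probe, 7 with one detected on some array, 4 with one detected on some BALB/c array and 1 with one detected on all BALB/c arrays. That was Iah1, an esterase, at 9.31 in NOD and 5.14 in BALB/c cultures on the first probe and at 9.42 ± 0.12 in NOD and 7.58 ± 0.77 in BALB/c cultures on the second (SD, n = 4 each; limma adjusted p = 0.0157). Probe sequences and the sequences of both strains were not used here, so whether a strain difference in the bases under a member's probe goes with its low NOD signal was not tested.

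**Figure D3:**
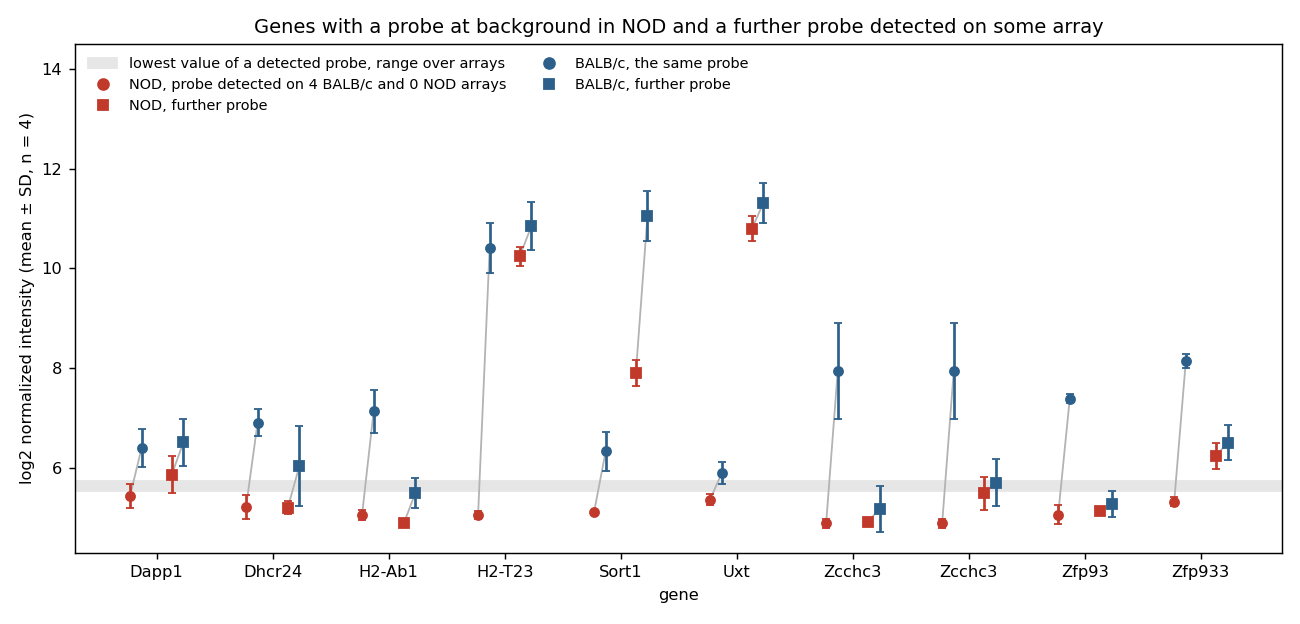
Log2 levels on both probes of named genes with 1 probe detected on 4 BALB/c and no NOD arrays (circles) and a further probe detected on some array (squares); mean and SD of 4 NOD and 4 BALB/c cultures. H2-T23 is at 5.05 in NOD cultures on 1 probe and at 10.25 on the other, Sort1 is lower in NOD on both, and Zcchc3 appears with each of 2 further probes.

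The pathways of the members were read from other genes on the arrays. Lists were compiled with earlier results of these data known, so counts are given beside the share called over all named genes, 9.11% of 4224 at a limma adjusted p under 0.05 (4.97% lower and 4.14% higher in NOD cultures) and 3.2% without NOD culture 4. Over all tested probes these shares were 8.52%, and 2.68% without NOD culture 4. Of 24 genes of heme synthesis, 3 were tested, and 1 was lower in NOD cultures. Iba57, an iron-sulfur cluster assembly factor of mitochondria, was at 7.11 ± 0.10 in NOD and 8.28 ± 0.23 in BALB/c cultures (SD, n = 4 each), a log2 difference of -1.17 (limma adjusted p = 0.00584, and 0.0411 without NOD culture 4). Abcb6, a porphyrin transporter, differed by 0.50 and was not called.

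Of 28 genes of the dystrophin complex and its ligands 7 were tested, and none was called in either direction. Dag1, the dystroglycan core of the complex, was at 12.24 ± 0.36 in NOD and 12.91 ± 0.44 in BALB/c cultures. Utrn, the dystrophin homologue, was at 9.26 ± 0.30 in NOD and 8.82 ± 0.74 in BALB/c cultures (SD, n = 4 each). The largest differences in the list were Lamb2, a laminin chain, at -1.35 (limma adjusted p = 0.0831) and Sgcb, a sarcoglycan, at 0.83 (limma adjusted p = 0.0907). A second Sgcb probe, detected on all arrays, differed by only 0.17 (limma adjusted p = 0.609). At an unadjusted p under 0.05, 3 of the 7 passed, and the share over all tested genes at that threshold is not given here. Without BALB/c culture 2, 2 genes of the list were called, and without BALB/c cultures 2 and 3, 4 were. Calls over all tested probes rose too, from 1511 to 3423 and 5979 in those settings.

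Among 31 Arf-family and GARP genes, 7 were tested, 1 was higher and 1 lower in NOD cultures. Arl5c, the closest relative of Arl5a with a probe, was at 7.72 ± 0.31 in NOD cultures and 5.51 ± 0.33 in BALB/c cultures (SD, n = 4 each). It was detected on all 4 NOD arrays and 1 BALB/c array. The difference was 2.21 (limma adjusted p = 0.000786, and 0.00733 without NOD culture 4), opposite in sign to that of Arl5a. Vps53, a GARP subunit, differed by -0.84 on its brighter probe (limma adjusted p = 0.0270), a call lost without NOD culture 4 at 0.116. Its dimmer probe gave 0.17 (limma adjusted p = 0.706). Arl1, the Golgi relative, and Vps51, another GARP subunit, differed by -0.45 and -0.22 and were not called. The count of called genes was 4 without BALB/c culture 2, 5 without BALB/c cultures 2 and 3, and 1 without any one of BALB/c cultures 1 and 4 and NOD cultures 2, 3 and 4. Calls over all tested probes, 1511 as reported, were 3423, 5979 and 460 to 758 in these settings.

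Of 26 EF-hand and reticulum calcium genes, 5 were tested and 1 was called. Cacna1c, the pore subunit of the L-type calcium channel, was at 8.86 ± 0.37 in NOD and 7.44 ± 0.39 in BALB/c cultures (SD, n = 4 each), higher by 1.42 (limma adjusted p = 0.0144, and 0.0632 without NOD culture 4). A second Cacna1c probe was undetected on all arrays. Capn2, a calpain with the same EF-hand fold as Sri, was at 13.11 ± 0.18 in NOD and 13.20 ± 0.36 in BALB/c cultures on its brighter probe, and its second probe differed by 0.91 (limma adjusted p = 0.220). Atp2a2, the reticulum calcium pump, differed by 0.20. The ryanodine receptors Ryr1 and Ryr2 had probes that were detected on no array.

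The genes around each member were read as well. Around the 6 genes, 36 neighbours were tested, the 3 nearest tested genes on each side of each gene, which lay from 1 to 45 annotated protein-coding genes away; 4 were higher and 1 lower in NOD cultures, 13.9% called. The share called over all named genes was 9.11%. The 5 calls compare with 9 without BALB/c culture 3 and 14 without BALB/c cultures 2 and 3, with 2 without BALB/c culture 1, NOD culture 1 or NOD culture 4, and with 1 without BALB/c culture 4. Calls over all tested probes moved the same way. They went from 1511 to 2433 without BALB/c culture 3 and 5979 without BALB/c cultures 2 and 3. In the settings with 2 or 1 neighbours called they were 460 to 645. Gtpbp10, a mitochondrial ribosome assembly GTPase near Sri on chromosome 5, was detected on 4 BALB/c and no NOD arrays, at 4.97 ± 0.06 in NOD cultures and 7.10 ± 0.67 in BALB/c cultures (SD, n = 4 each). Its difference was -2.13 (limma adjusted p = 0.00440, and 0.0269 without NOD culture 4), and its second probe was undetected on all arrays. Cdkl2, a kinase gene beyond Parm1, was higher by 1.99 (limma adjusted p = 0.000186). Cfap69, a ciliary gene and the nearest tested gene on one side of Sri, was higher by 1.56 (limma adjusted p = 0.0155) on one probe and by 0.93 on another (limma adjusted p = 0.160). Gm17019, a predicted gene on the other side of Sri, was higher by 3.49 (limma adjusted p = 0.0393). The calls of Cfap69 and Gm17019 did not hold without NOD culture 4, and those of Cdkl2 and Gtpbp10 did. The other genes nearest to a member among those tested were not called. Tfap2a and Smim13, around Tmem14c, differed by 0.24 and 0.75 (a second Smim13 probe, detected on all arrays, by -0.51), and Tuba3b and Fgfr1op2, around Sspn, by 0.51 and -0.22. The chemokine gene Cxcl2 and the E3 ligase gene Rchy1, which directly adjoins Parm1, differed by -1.03 and -0.29. Rnd3 and the endosomal sorting gene Stam2, around Arl5a, differed by 0.075 and 0.032. Tmem260 and Ttc5, around Armh4, differed by -1.15 and -0.033, and Pclo, on the far side of Sri, by 0.060.

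**Figure D4:**
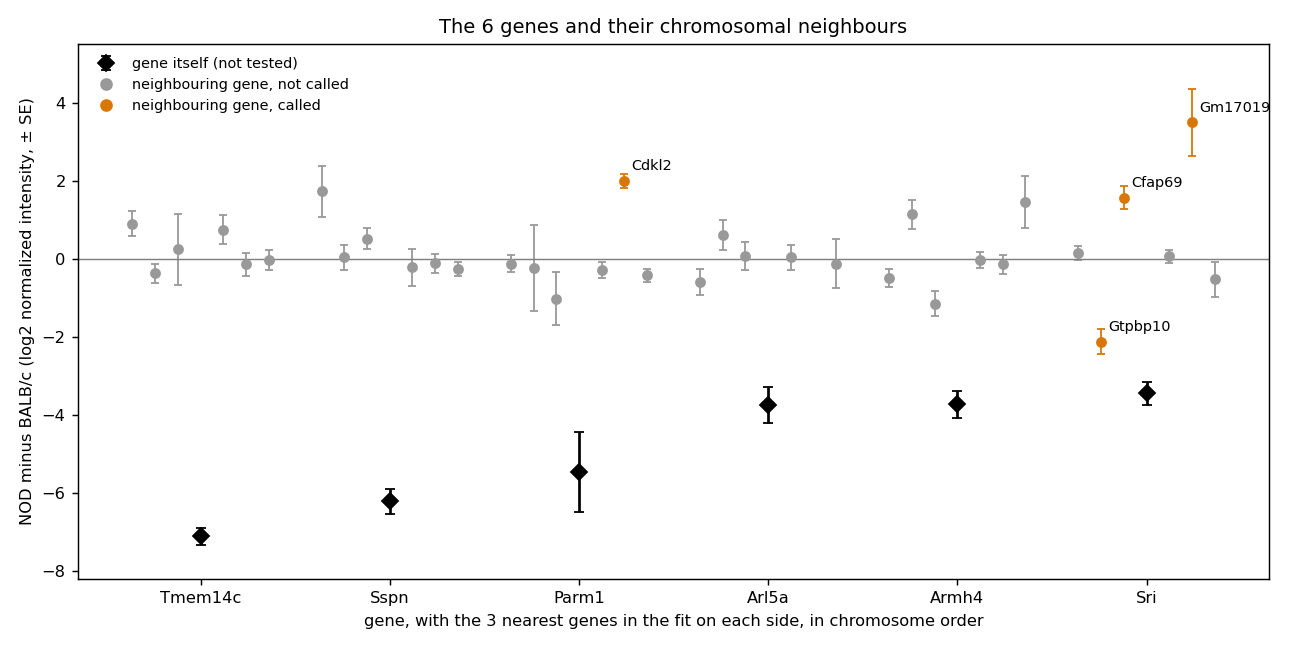
Log2 difference, NOD minus BALB/c, with the SE of the fit, of each member (not tested) and of the 3 tested neighbours on each side, in order along the chromosome (1 neighbour is not drawn). Members lie between -7.11 and -3.45, and 31 of the 36 neighbours were not called.

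The genes nearest in level were sought among named genes outside the 6, by the mean absolute difference of centred log2 levels over the 8 arrays. H2-D1, a class I histocompatibility gene, was the nearest of these to both Tmem14c (0.73) and Sspn (0.43). Gbp2b, an interferon-induced GTPase, was the nearest to Arl5a (0.38) and to Sri (0.34). Parm1 was nearest to Apol9a (1.01), and Armh4 to the zinc finger gene Zfp871 (0.31) and then Yipf4, a Golgi gene (0.33). Within the 6, Tmem14c was 0.47 and Parm1 0.81 from Sspn, each nearer than its nearest gene outside them, and Arl5a and Sri were 0.34 apart. Likeness here rests mostly on the strain difference that chose the members.

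Markers of other cells were looked at beside these values. Of 14 stromal markers 7 had a probe, of which 5 or 6 were detected on NOD arrays and 5 on BALB/c arrays. Their summed level was 19694 to 26432 in NOD and 10686 to 25679 in BALB/c cultures. Vcam1, a stromal adhesion molecule, and Col1a2, a collagen chain, were the 2 called of 6 tested, higher in NOD by 1.14 (limma adjusted p = 0.00945) and 1.22 (limma adjusted p = 0.0471). Over all named genes 9.11% were called, and 3.2% without NOD culture 4. Whether the Vcam1 and Col1a2 calls hold without that culture is not given here. Col1a2 was at 8.08 in BALB/c culture 3, against 9.27 to 9.38 in the other BALB/c cultures. Col1a1, the other collagen chain of the list and its brightest gene, differed by 0.42 and was not called (limma adjusted p = 0.458). Of 18 erythroid markers 4 had a probe, none was detected on a NOD array, and Hba-a1 was detected on 2 BALB/c arrays. Their summed level was 139 to 156 in NOD and 147 to 164 in BALB/c cultures. Of 16 leukocyte markers 7 had a probe, of which 0 or 1 was detected on NOD arrays and 1 to 4 on BALB/c arrays. Their summed level was 222 to 469 in NOD cultures, and 560, 3028, 255 and 1779 in BALB/c cultures 1 to 4. The macrophage gene Cd68 was detected on 4 BALB/c and no NOD arrays, at 5.40 ± 0.26 in NOD and 7.48 ± 1.33 in BALB/c cultures (SD, n = 4 each; limma adjusted p = 0.0614), and the myeloid gene Lyz2 on 3 BALB/c and 2 NOD arrays, at 6.30 ± 1.38 in NOD and 8.46 ± 2.74 in BALB/c cultures, with its highest level, 11.42, in a BALB/c culture. Csf1r and Fcgr3 were detected on 1 BALB/c and no NOD array each, and Ptprc, Itgam and Cd3e on no array. The muscle markers had no named probe. The summed leukocyte level, a linear sum in which a bright gene such as Lyz2 counts most, was thus highest in BALB/c cultures 2 and 4. Its part in the members' differences was not tested. In cultured cells measured in bulk, fewer cells of a type and less RNA per cell cannot be told apart.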

How the data were processed

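Expression was measured in 8 samples on 1-colour Illumina arrays. The authors deposited the mean bead signal intensity of 46628 probes per array, which per the file headers was not normalized, with a detection p-value for each; a second table deposited by the authors holds their normalized intensity, whose method is not given in the sources used here. Per the labels' protocols, total RNA was extracted with Trizol, column cleaned and DNase treated, and biotinylated cRNA was made from it. Depth does not apply to arrays: their number limits precision.

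The files pair no probe with a symbol. The zero-padded number in a probe identifier was read as a gene ID and matched to RefSeq GRCm38.p6, which named 9805 probes of 8106 genes; 627 control or unplaced probes were left out. Signals were corrected by the normexp method of limma 3.58.1 (R 4.3.3), which infers negative controls from the detection p-values; p-values below 1 step of 1603 controls were set to 0 first. Quantile normalization followed, after adding an offset of 16. Probes detected (p under 0.05) on at least 4 of 8 arrays, 17745 in all, entered lmFit and eBayes, and p-values were adjusted over all of them by Benjamini-Hochberg. Groups came from the strain labels. Where a gene had several probes, the probe of highest mean level stood for it, and a second detected probe is given for a named gene where its sign or its call differs. The self-test added known changes to 200 of the simulated probes and recovered their sizes.

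Genes named in the text are all members, every called gene of a list up to 4 with close relatives, the nearest tested genes along the chromosome and every called neighbour, the nearest genes in level, and the markers; other names were chosen after their values were seen. A few genes that this rule would name are not reported here. Members, lists, tests and the background step were chosen with earlier results of these data known, and the members' strain difference was what chose them. Same-numbered samples of both strains did not deviate together (correlations of -0.33, -0.64, -0.05 and 0.08), so the numbers were not used as pairs. Alternatives tried were the background correction, the offset, the normalization, the authors' values, the detection filter, array weights (computed gene by gene after the default method did not converge on these data), a replicate block and leaving out arrays.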

Additional observations from a re-analysis of the deposited data

Results flagged for a closer look

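In a group of 4 arrays a sample was picked out when its gap to the nearest other sample, over the group's range, was above Dixon's 95% critical value, which chance passes in about 1 of 20 groups; 6 of 78 groups passed. Parm1 was low in BALB/c culture 3 (ratio 0.924), at 6.83 on the log2 scale against 11.53 to 11.92 in the other BALB/c cultures. Arl5a was high in NOD culture 1 (0.884), at 5.65 against 5.16 to 5.22, all of them undetected values. BALB/c culture 3 was also low for Apol9a (0.922), Yipf4 (0.896), Iba57 (0.899) and Col1a2 (0.919), a fibrillar collagen chain. That culture stood apart from cultures 1 and 4 on the whole array.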

How the results depend on the processing

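Every member difference kept its sign in all alternatives run, but sizes moved. Tmem14c, Sspn, Arl5a and Armh4 were at -5.93, -5.10, -2.75 and -2.77 with no background correction, at -6.22, -5.18, -2.96 and -2.82 with an offset of 50, and at -5.82, -5.11, -2.79 and -2.93 with the authors' values, where Sri was at -2.90. With detection p-values as deposited they were -4.85, -3.60, -1.34 and -1.07, with Parm1 at -3.17 and Sri at -2.80. Without BALB/c cultures 2 and 3, Tmem14c, Arl5a and Sri were at -6.83, -2.99 and -2.93. The second Arl5a probe, undetected on every array, gave -0.068 and so no reading of the strain difference. Leaving out 1 array gave -7.23 to -6.97 for Tmem14c, -6.51 to -5.95 for Sspn, -6.71 to -5.01 for Parm1, -4.08 to -3.32 for Arl5a, -4.09 to -3.57 for Armh4 and -3.61 to -3.25 for Sri. The cause of these shifts was not tested.

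Counts of calls depended far more on which arrays entered. Leaving out 1 array gave 460 (without NOD culture 4) to 3423 (without BALB/c culture 2) probes called against 1511, 1 to 1 heme genes, 0 to 2 dystrophin complex genes, 1 to 4 Arf-family and GARP genes, 0 to 1 calcium genes and 1 to 9 neighbours. Without BALB/c cultures 2 and 3 the counts were 5979 probes, 4 dystrophin complex genes, 5 Arf-family and GARP genes and 14 neighbours. Array weights gave 9188 probes, 2, 4 and 6 genes of the heme, dystrophin and Arf lists and 20 neighbours, but put a weight of 11.03 on NOD culture 4 against 0.18 to 2.11 on the others. Only probes detected on all arrays gave 775, 1 Arf-family gene and 3 neighbours. The replicate block, on numbers that did not pair the samples, gave 513 probes, 0 heme genes, 1 Arf-family gene, 0 calcium genes and 2 neighbours. Median scaling moved the median of all probes to 0.15. Of the called genes named, Arl5c and Cdkl2 lost their call under no alternative, and Vps53 and Gm17019 under 6 and 9.

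NOD levels of 5 members are at background and give only bounds. The number of arrays, 4 a strain with 1 of them at the mean of its group, limits every p-value.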
